A study of Mus musculus with 5 samples.

Results

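The 10 genes described here encode 7 dual-specificity phosphatases (Dusp1, Dusp4, Dusp5, Dusp6, Dusp7, Dusp9 and Dusp14) and the 3 ETS transcription factors of the Pea3 group (Etv1, Etv4 and Etv5). They were chosen by name from the 32285 genes counted in each of the 5 single-cell RNA sequencing libraries, and all 10 had UMIs (unique molecular identifiers, which mark single captured transcripts) in every library. The libraries came from a wild-type mouse epiblast stem cell (EpiSC) line, a pluripotent line derived from the epiblast of the early embryo, after 3 days of mesoderm differentiation in N2B27 medium. Every culture received 1 µM of the Wnt agonist CHIR99201 (Chi) and 8 ng/ml BMP4. They differed in the FGF signal: the first received 30 nM AZD4547, an inhibitor of FGF receptors (FGFRi), and the others 0, 0.75, 3 or 12 ng/ml FGF2. No FGF2 dose is given for the FGFRi library. Each condition was a single library of a single cell line, so that the effect of a condition cannot be told apart from that of a culture, and no test between conditions was possible.

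FGF ligands bind receptor tyrosine kinases and activate a kinase cascade that ends in ERK. Active ERK phosphorylates ETS factors and induces genes, some of which encode inhibitors of the same cascade. Dual-specificity phosphatases remove the phosphates that keep ERK, p38 or JNK active. Dusp6, Dusp7 and Dusp9 act in the cytoplasm with a preference for ERK. Dusp1, Dusp4 and Dusp5 are inducible enzymes of the nucleus, of which Dusp5 is specific for ERK. Dusp14 is a small enzyme without the kinase-binding domain of the others. Etv4, Etv5 and Dusp6 are widely used as readouts of FGF signaling in the embryo. T, Tbx6 and Hand1, used below to sort cells, mark the primitive streak, the presomitic mesoderm, and the proximal and extraembryonic mesoderm, respectively.

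All 10 genes are annotated as protein-coding (GENCODE vM21, GRCm38). The phosphatase genes lie at chr17:26505590-26562128 (Dusp1, minus strand), chr8:34807297-34819894 (Dusp4, plus), chr19:53529109-53542431 (Dusp5, plus), chr10:99263231-99267489 (Dusp6, plus), chr9:106368632-106375724 (Dusp7, plus), chrX:73639419-73643514 (Dusp9, plus) and chr11:84048041-84069261 (Dusp14, minus). The Pea3 genes lie at chr12:38779380-38870484 (Etv1, plus), chr11:101769742-101785371 (Etv4, minus) and chr16:22381309-22439719 (Etv5, minus). The annotated span of Dusp1 overlaps that of 2 other genes of the files, of which Gm50275 lies on the same strand and Ergic1 on the other, and Dusp5 overlaps the antisense gene Gm50394, so that the counts of Dusp1 and Dusp5 are less certain than those of the other members.

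RefSeq promoter sequences (GRCm38.p6) were found for 7 of the 10 genes, with 9 windows in all. Promoters of Dusp4, Dusp9 and Etv4 were not analysed here. The 250 bases before each start site were searched on both strands for GGAA, the core that ETS factors bind, for TGANTCA (AP-1), for TGACGTCA (CRE), and for the CArG box of serum response factor. The following stretches lie 250 to 51 bases before the start and were picked by hand. Dusp6 and Etv5 were higher, and Dusp1 and Dusp5 lower, with FGF2. Etv1, also higher with FGF2, is not shown, and the Etv5 window shown is the one with GGAA cores. Different motifs are marked in different genes, so the stretches do not compare the groups. Capitals mark GGAA or its complement TTCC for Dusp6 and Etv5, the CRE for Dusp1 and the CArG boxes for Dusp5. None overlapped an annotated exon of its gene, and those of Dusp1 and Etv5 lie within the annotated span of the gene.
Dusp6, chr10:99262981-99263180, plus strand: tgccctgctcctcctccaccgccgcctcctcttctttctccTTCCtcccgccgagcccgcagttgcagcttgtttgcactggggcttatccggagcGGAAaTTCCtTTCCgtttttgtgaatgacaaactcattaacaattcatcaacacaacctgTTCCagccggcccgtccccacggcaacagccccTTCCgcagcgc
Etv5, chr16:22438419-22438618, minus strand: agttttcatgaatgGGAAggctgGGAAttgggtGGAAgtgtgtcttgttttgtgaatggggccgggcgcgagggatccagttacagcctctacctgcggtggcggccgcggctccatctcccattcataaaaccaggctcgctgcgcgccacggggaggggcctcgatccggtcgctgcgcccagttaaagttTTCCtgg
Dusp1, chr17:26508523-26508722, minus strand: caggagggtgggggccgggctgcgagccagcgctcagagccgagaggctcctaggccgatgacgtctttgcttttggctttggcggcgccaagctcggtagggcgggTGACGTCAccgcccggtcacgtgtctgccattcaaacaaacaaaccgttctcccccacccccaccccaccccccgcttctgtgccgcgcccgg
Dusp5, chr19:53528895-53529094, plus strand: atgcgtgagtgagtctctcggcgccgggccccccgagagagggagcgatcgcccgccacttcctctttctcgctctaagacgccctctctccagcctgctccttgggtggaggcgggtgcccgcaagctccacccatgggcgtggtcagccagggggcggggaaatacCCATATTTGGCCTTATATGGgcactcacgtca
The Dusp6 window held 6 GGAA cores. This core was present in 93.4% of the 32817 promoter windows, with a median of 3 per window. The Etv5 window shown and the Dusp14 window each held 4, and the other Etv5 window and those of Dusp1 and Dusp7 held none. The Dusp5 window held 3, which are left in lower case where they fall in the stretch above. The Etv1 windows held 2 and 1. The number of cores thus did not sort the members higher with FGF2 from those lower. The CRE of Dusp1, 143 bases before the start, has a counterpart in 1.55% of windows. Dusp5 held 2 CArG boxes that touch each other, at 82 and 72 bases before the start. A CArG box was found in 1.47% of windows, and at least 2 in 0.0183%. No member window held the AP-1 sequence, found in 6.75% of windows. Matches describe letters in these windows only and do not show binding.

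Barcodes were kept where at least 2500 genes and at most 10% mitochondrial UMIs were found, and 10653 of 15375 passed. The libraries held between 47824660 and 81538748 retained UMIs, and the median cell held between 24408 and 29661.5. Only 7 retained barcodes occurred in more than one library. The level of a gene is its UMIs summed over retained cells, scaled to the UMIs of these cells in the usual counts-per-million unit (CPM), with the exact Poisson 95% interval in parentheses. Intervals of levels and ratios, here and below, cover counting error only and treat each UMI as independent. They leave out the spread between cells, given below, and that between cultures, which is unknown. They are therefore too narrow where the UMIs of a gene gather in few cells. Counts come from transcript 3′ ends and are not divided by length, so levels are compared between libraries and not between genes. Fewer expressing cells and less RNA per cell cannot be told apart in these summed levels. Of the 4 epiblast markers, Pou5f1 was between 1.74 and 11.3 CPM and Nanog between 0.460 and 2.03 CPM in these differentiated cells. Utf1 was between 1.86 and 7.43 CPM. Otx2 was at 12.0 CPM with the FGFRi and between 1.56 and 2.57 CPM from 0 to 12 ng/ml FGF2.

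The members fell into 2 groups of equal size by their levels at 0 and 12 ng/ml FGF2. Of all 8237 genes that reached 10 CPM in either of these libraries, 52.3% were higher at 12 ng/ml. The even split of the members is near that share. Dusp4, Dusp6, Etv1, Etv4 and Etv5 were lowest with the FGFRi and higher at 12 than at 0 ng/ml FGF2. Dusp1, Dusp5, Dusp7, Dusp9 and Dusp14 were lower at 12 than at 0 ng/ml, and all 5 were lowest at 3 ng/ml. How many of all genes were lowest at 3 ng/ml was not counted. ERK activity was not measured in these libraries.

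Etv4 had the widest range. Its level was 1.38 CPM with the FGFRi (1.07 to 1.76), 15.9 at 0 ng/ml FGF2 (14.9 to 17.0), 26.5 at 0.75 ng/ml (25.4 to 27.7), 40.5 at 3 ng/ml (38.9 to 42.1) and 46.4 at 12 ng/ml (44.8 to 48.0). No neighboring intervals overlapped, and the level at 12 ng/ml was 33.6-fold that with the FGFRi, which rests on 66 UMIs and takes no account of free RNA. Etv5, its close relative, had a level of 2.45 CPM with the FGFRi (2.02 to 2.93), 18.85 at 0 ng/ml (17.7 to 20.0), 31.5 at 0.75 ng/ml (30.3 to 32.8), 37.15 at 3 ng/ml (35.7 to 38.7) and 32.1 at 12 ng/ml (30.8 to 33.5). Thus Etv5 peaked at 3 ng/ml, and its levels at 0.75 and 12 ng/ml did not differ beyond their intervals. Etv1, the remaining Pea3 gene, was at 2.84 CPM with the FGFRi (2.39 to 3.36; 136 UMIs), 4.47 at 0 ng/ml (3.94 to 5.06), 8.11 at 0.75 ng/ml (7.50 to 8.75), 13.1 at 3 ng/ml (12.2 to 14.0) and 18.4 at 12 ng/ml (17.4 to 19.4). Etv1 was higher in each library than in the one before, without a plateau at the upper doses.

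Among the phosphatases higher with FGF2, Dusp6, the cytoplasmic enzyme that prefers ERK, had a level of 8.28 CPM with the FGFRi (7.49 to 9.14), 24.4 at 0 ng/ml (23.1 to 25.7), 35.9 at 0.75 ng/ml (34.6 to 37.2), 38.1 at 3 ng/ml (36.6 to 39.7) and 42.6 at 12 ng/ml (41.1 to 44.1). Most of its range lay below 0.75 ng/ml, and the intervals at 0.75 and 3 ng/ml overlapped. The level of Dusp4, an inducible nuclear phosphatase, was 9.08 CPM with the FGFRi (8.24 to 9.97), 24.1 at 0 ng/ml (22.9 to 25.4), 42.9 at 0.75 ng/ml (41.5 to 44.3), 64.2 at 3 ng/ml (62.2 to 66.2) and 60.4 at 12 ng/ml (58.6 to 62.2). Dusp4 therefore still differed between 0.75 and 3 ng/ml, where Dusp6 hardly did.

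Among the members lower with FGF2, Dusp9, another phosphatase with a preference for ERK, had the largest differences. Its level was 44.3 CPM with the FGFRi (42.5 to 46.3), 53.8 at 0 ng/ml (52.0 to 55.8), 24.8 at 0.75 ng/ml (23.7 to 25.9), 15.4 at 3 ng/ml (14.4 to 16.4) and 19.5 at 12 ng/ml (18.5 to 20.6). It was the only member of this group that was highest at 0 ng/ml and not with the FGFRi. Dusp5, the nuclear phosphatase specific for ERK, had levels of 22.9 CPM with the FGFRi (21.6 to 24.3), 16.7 at 0 ng/ml (15.7 to 17.8), 13.9 at 0.75 ng/ml (13.1 to 14.8), 10.9 at 3 ng/ml (10.1 to 11.8) and 11.5 at 12 ng/ml (10.7 to 12.3). The intervals at 3 and 12 ng/ml overlapped for Dusp5, as they did for Dusp1 and Dusp7.

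The level of Dusp1, which also acts on p38 and JNK, was 21.8 CPM with the FGFRi (20.5 to 23.2), 21.0 at 0 ng/ml (19.9 to 22.3), 15.8 at 0.75 ng/ml (14.9 to 16.7), 12.1 at 3 ng/ml (11.3 to 13.0) and 13.0 at 12 ng/ml (12.2 to 13.9). The FGFRi and 0 ng/ml libraries did not differ beyond their intervals for Dusp1. Dusp7, the cytoplasmic relative of Dusp6, had levels of 18.1 CPM with the FGFRi (17.0 to 19.4), 13.3 at 0 ng/ml (12.4 to 14.3), 11.7 at 0.75 ng/ml (10.97 to 12.5), 9.71 at 3 ng/ml (8.96 to 10.5) and 10.4 at 12 ng/ml (9.68 to 11.2). The intervals overlapped between 12 ng/ml and either neighboring level of Dusp7, and between 0 and 0.75 ng/ml. For Dusp14, the level was 13.4 CPM with the FGFRi (12.4 to 14.5), 12.9 at 0 ng/ml (12.0 to 13.8), 8.84 at 0.75 ng/ml (8.21 to 9.51), 7.54 at 3 ng/ml (6.88 to 8.24) and 9.35 at 12 ng/ml (8.65 to 10.1). The FGFRi and 0 ng/ml libraries again overlapped, and so did 0.75 ng/ml with both 3 and 12 ng/ml.

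**Figure D1:**
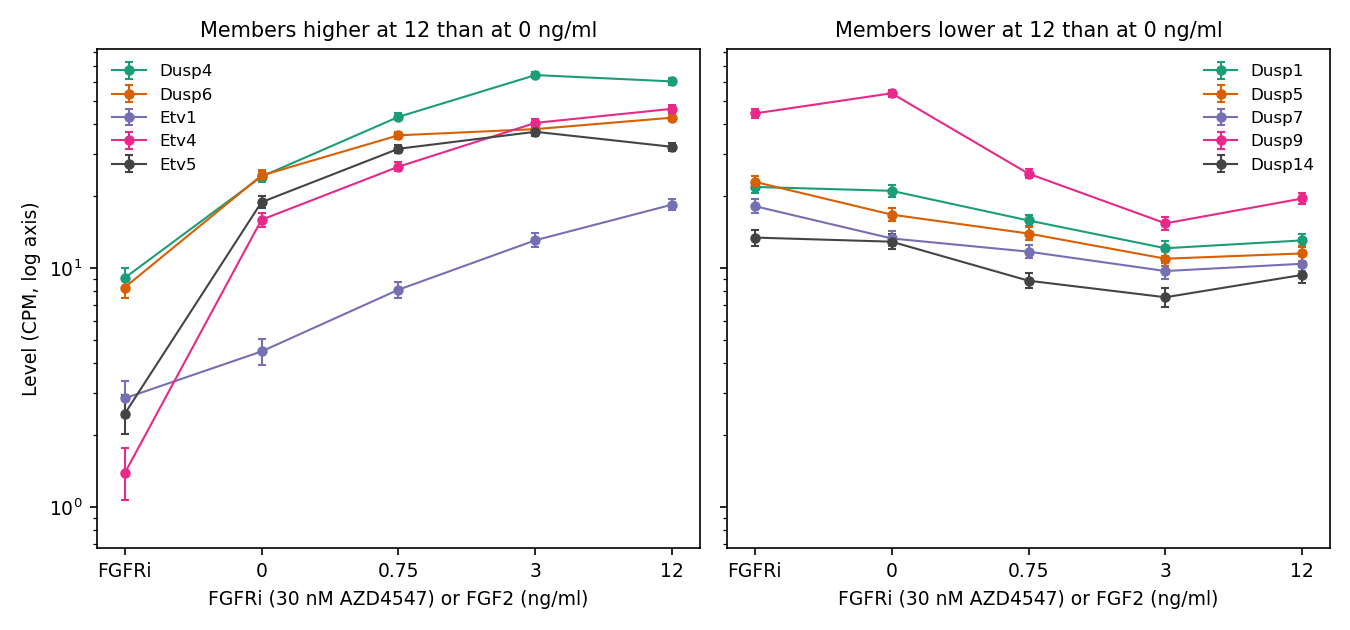
Level of each member (CPM, log axis) in the 5 libraries, with exact Poisson 95% intervals; lines join libraries and are no fit. The 5 genes on the left are lowest with the FGFRi, Etv4 at 1.38 CPM, and the 5 on the right are lowest at 3 ng/ml FGF2, Dusp9 at 15.4 CPM.

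Ratios between libraries were then counted by a rule of size, a ratio of 2 or more where one of the libraries reached 10 CPM, which stands in for a test. The 5 comparisons share libraries and are given side by side. Between the FGFRi and 0 ng/ml, 9 members reached 10 CPM, of which 4 were higher at 0 ng/ml by the rule and 0 lower. Over all 8445 genes at that level, 2.62% passed the rule upward and 5.38% downward. Etv4 was 11.5-fold higher at 0 ng/ml (exact conditional 95% interval 8.98 to 15.0), Etv5 7.71-fold (6.36 to 9.41), Dusp6 2.94-fold (2.63 to 3.30) and Dusp4 2.66-fold (2.38 to 2.97). Etv1 was below 10 CPM in both libraries, with a ratio of 1.57 (1.27 to 1.95). Dusp5 and Dusp7 were lower at 0 ng/ml than with the FGFRi, with ratios of 0.729 (0.668 to 0.796) and 0.732 (0.663 to 0.808), and did not pass the rule.

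From 0 to 0.75 ng/ml FGF2, 0 of 9 members passed the rule upward and 1 downward, beside 0.308% and 1.41% of 8130 genes. The member was Dusp9, with a ratio of 0.461 (0.435 to 0.488). All 5 members of the rising group were higher at 0.75 ng/ml, with ratios of between 1.47 for Dusp6 and 1.81 for Etv1. All 5 others were lower. From 0.75 to 3 ng/ml, 0 of 9 members passed in either direction, beside 0.336% of 8036 genes upward and 0.523% downward. In this step Etv1 (1.61), Etv4 (1.53) and Dusp4 (1.497) had the largest ratios upward and Dusp9 (0.619) the largest downward, while Dusp6 was at 1.06 (1.01 to 1.12).

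Between 3 and 12 ng/ml, 0 of 9 members passed the rule upward or downward, beside 0.0631% and 0.0252% of 7929 genes. Etv1 was 1.41-fold higher at 12 ng/ml (1.29 to 1.54), Dusp9 1.27-fold (1.17 to 1.38) and Dusp14 1.24-fold (1.10 to 1.40). Etv5 and Dusp4 were lower at 12 ng/ml, with ratios of 0.865 (0.816 to 0.916) and 0.941 (0.901 to 0.982). For Dusp1, Dusp5 and Dusp7 the interval of the ratio included 1.

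Over the whole dose range, from 0 to 12 ng/ml, 3 of 10 members passed the rule upward and 1 downward, beside 1.87% and 4.04% of 8237 genes. Etv1 was 4.12-fold higher at 12 ng/ml (3.60 to 4.73), Etv4 2.91-fold (2.71 to 3.14) and Dusp4 2.50-fold (2.35 to 2.66). Dusp9 was lower, with a ratio of 0.363 (0.340 to 0.387). Dusp6 (1.75; 1.64 to 1.86) and Etv5 (1.70; 1.58 to 1.83) were higher without passing the rule. The ratios of Dusp1, Dusp5, Dusp14 and Dusp7 were 0.620, 0.688, 0.726 and 0.784, each with an interval below 1. The median log2 ratio of the 10 members was 0.21, and that of all genes was 0.01.

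**Figure D2:**
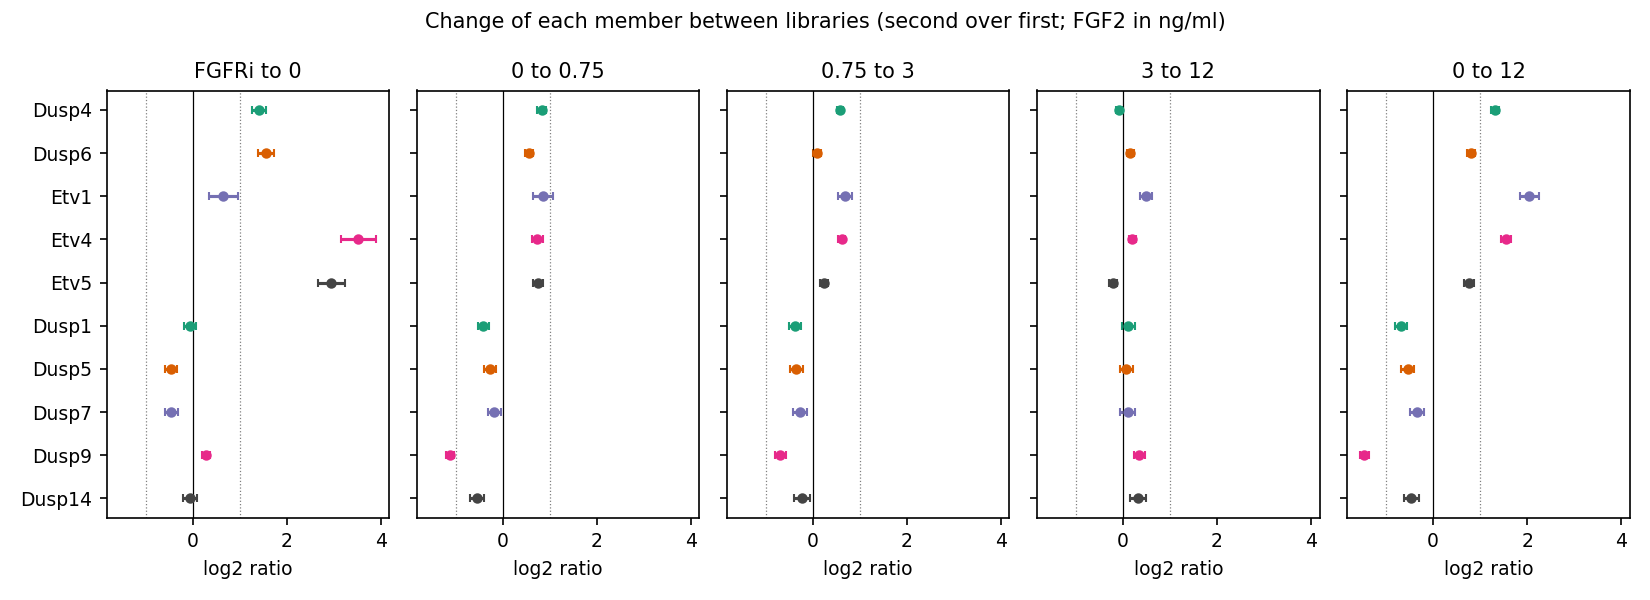
log2 ratio of each member's level between libraries (second over first named, FGF2 in ng/ml), with exact conditional 95% intervals; dotted lines mark a ratio of 2 in either direction. Etv4 (3.53) and Etv5 (2.95) stand far to the right between the FGFRi and 0 ng/ml, Dusp9 is the only member left of the dotted line from 0 to 0.75 ng/ml, at -1.12, and no member passes the lines from 3 to 12 ng/ml.

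The dose at which each gene neared its level at 12 ng/ml differed. On the log2 scale, Etv5 had covered 96.6% of its difference between 0 and 12 ng/ml at 0.75 ng/ml, Dusp6 69.5%, Dusp4 62.7%, Etv4 47.8% and Etv1 42.0%. At 3 ng/ml, Dusp6 had covered 80.2%, Etv4 87.3% and Etv1 75.7%, whereas Dusp4 and Etv5 were beyond their final level. These shares describe 4 libraries and were not tested.

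Genes of the same pathway, in lists chosen with earlier results of these data known, differed in how they moved with the members. Of 13 other genes known as ERK targets that reached 10 CPM, 1 passed the rule upward from 0 to 12 ng/ml and 0 downward. This was Spry4, an inhibitor of receptor tyrosine kinase signaling, at 0.565, 5.88, 13.6, 19.7 and 25.6 CPM from the FGFRi to 12 ng/ml, 4.36-fold higher at 12 than at 0 ng/ml (3.88 to 4.92). Il17rd, another feedback inhibitor of FGF signaling, was at 15.1, 36.9, 52.9, 64.4 and 64.2 CPM, with a ratio of 1.74. Like Dusp4 it was at nearly the same level at 3 and 12 ng/ml. The ERK targets Ier3 and Myc were lower at 12 than at 0 ng/ml, with ratios of 0.566 and 0.544.

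Between the FGFRi and 0 ng/ml, 4 of 12 such targets passed the rule upward and 1 downward. Those upward were Spry1, Spred2, Il17rd and Ccnd1, named after their values were seen, as was Egr1 downward, which went from 76.4 to 31.0 CPM. Of the components from receptor to ERK, 0 of 19 passed upward and 1 downward from 0 to 12 ng/ml. This was Fgfr2, at 13.8 and 1.94 CPM, whereas Fgfr1, the other main receptor, was at 64.7 and 72.3 CPM. Of the other ETS factors, 0 of 12 passed upward and 2 downward. These were Ets1 (ratio 0.317) and Elf1 (0.405), and Ets2 was 1.90-fold higher at 12 ng/ml. Of the p38 and JNK genes, 0 of 7 passed in either direction. Of 18 other dual-specificity phosphatases, 7 reached 10 CPM, and 0 passed upward and 1, Dusp3, downward (0.340).

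Most immediate early genes and some cell type markers were also lower at 12 than at 0 ng/ml. The members lower with FGF2 were grouped by this same direction, so sharing it is no finding. Immediate early and dissociation genes, which respond quickly to growth factors or to handling of cells, summed to 647 CPM with the FGFRi and to 418, 306, 247 and 280 CPM from 0 to 12 ng/ml FGF2. Of these 13 genes, 12 were lower at 12 than at 0 ng/ml, and Jun was at 187, 97.3, 43.8, 26.2 and 29.3 CPM from the FGFRi to 12 ng/ml. Of all 8237 genes at 10 CPM in either library, 52.3% were higher at 12 ng/ml. Of the 7 listed genes at 10 CPM, 0 passed the rule upward and 3 downward, beside 1.87% and 4.04% of all genes. Those downward were Jun, Atf3 and Junb, the last named after its values were seen. The sum, like the 5 members, was lowest at 3 ng/ml, a trait not counted over all genes. From the FGFRi to 0 ng/ml the sum went down, whereas Dusp9 was higher at 0 ng/ml, with a ratio of 1.215 (1.15 to 1.28). In that step the intervals of Dusp1 (0.964; 0.886 to 1.05) and Dusp14 (0.961; 0.863 to 1.07) included 1. The part of the immediate early genes in the levels of Dusp1 and Dusp5, which are themselves quickly inducible, was not tested.

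Marker genes of cell types also differed between the libraries. The 5 genes that mark primitive streak or nascent mesoderm summed to 3.56 CPM with the FGFRi and to 55.0, 182, 397 and 416 CPM from 0 to 12 ng/ml, with T at 0.753 CPM with the FGFRi and 208 at 12 ng/ml. Those of presomitic mesoderm (4 genes) went from 2.87 to 44.4, 88.1, 172 and 222 CPM, and Msgn1 was at 0 UMIs with the FGFRi. Proximal and extraembryonic mesoderm markers (4 genes) went the other way, from 3064 to 711, 176, 73.3 and 90.9 CPM. Most of the sum with the FGFRi came from the contractile genes Tagln (1915 CPM) and Acta2 (1008 CPM), and Hand1 went from 63.5 CPM with the FGFRi to 85.7 at 0 ng/ml. The sum of surface and extraembryonic ectoderm markers (4 genes) also went down, from 2406 to 1997, 1343, 684 and 659 CPM, whereas Tfap2c among them was at 20.8 CPM with the FGFRi, 44.6 without FGF2 and 46.95 with 0.75 ng/ml. The part of cell type composition in the summed levels of the members was not tested, and the members are therefore given within classes of cells below.

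To compare shares of cells at equal depth, each cell was thinned to 10000 UMIs, which left out 39 FGFRi-treated cells and 17, 19, 10 and 9 cells from 0 to 12 ng/ml as too shallow. Etv4 was detected in 1.32% of cells with the FGFRi (exact binomial 95% interval 0.831 to 1.997), 13.5% at 0 ng/ml (11.9 to 15.2), 21.5% at 0.75 ng/ml (20.0 to 23.1), 30.7% at 3 ng/ml (28.7 to 32.7) and 35.7% at 12 ng/ml (33.7 to 37.6). Without thinning, an Etv4 UMI was found in 3.59% of cells with the FGFRi and in 28.3% without FGF2. The share of cells thus followed the level.

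Dusp4 was found in 7.76% of thinned cells with the FGFRi, and in 19.7%, 29.6%, 40.6% and 39.6% of those along the 4 FGF2 doses from 0 to 12 ng/ml. Dusp9 was found in 29.2% with the FGFRi, and in 23.8%, 13.6%, 9.22% and 12.5% along the doses. For Dusp9 the order of the shares and that of the levels differed between the FGFRi and 0 ng/ml, since fewer cells at 0 ng/ml held more UMIs: 9.35% of them had 2 or more, against 7.70% with the FGFRi, and 2.44% had 5 or more, against 0.481%. No cell type that should lack a member was at hand as a background. In its place, the class of cells with the lowest share was taken for each member (classes by T, Cdh1 and Cdh2). With the FGFRi, 0.539% of cells of this class had an Etv4 UMI (0.111 to 1.57), and the interval overlaps that of the 1.32% over all FGFRi-treated cells. The same held with the FGFRi for all 10 members, among them Dusp9 at 23.6% (20.1 to 27.3). In the libraries of 0, 0.75, 3 and 12 ng/ml FGF2 it held for 5, 4, 6 and 8 of the 10 members. For how many of all genes it held was not counted. The class is part of the library and was chosen as the lowest. Overlap shows only that it was like the whole library, so the measure cannot tell any share from free RNA. Cells of the lowest class may express the member, so the measure sets no level of free RNA in any library.

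**Figure D3:**
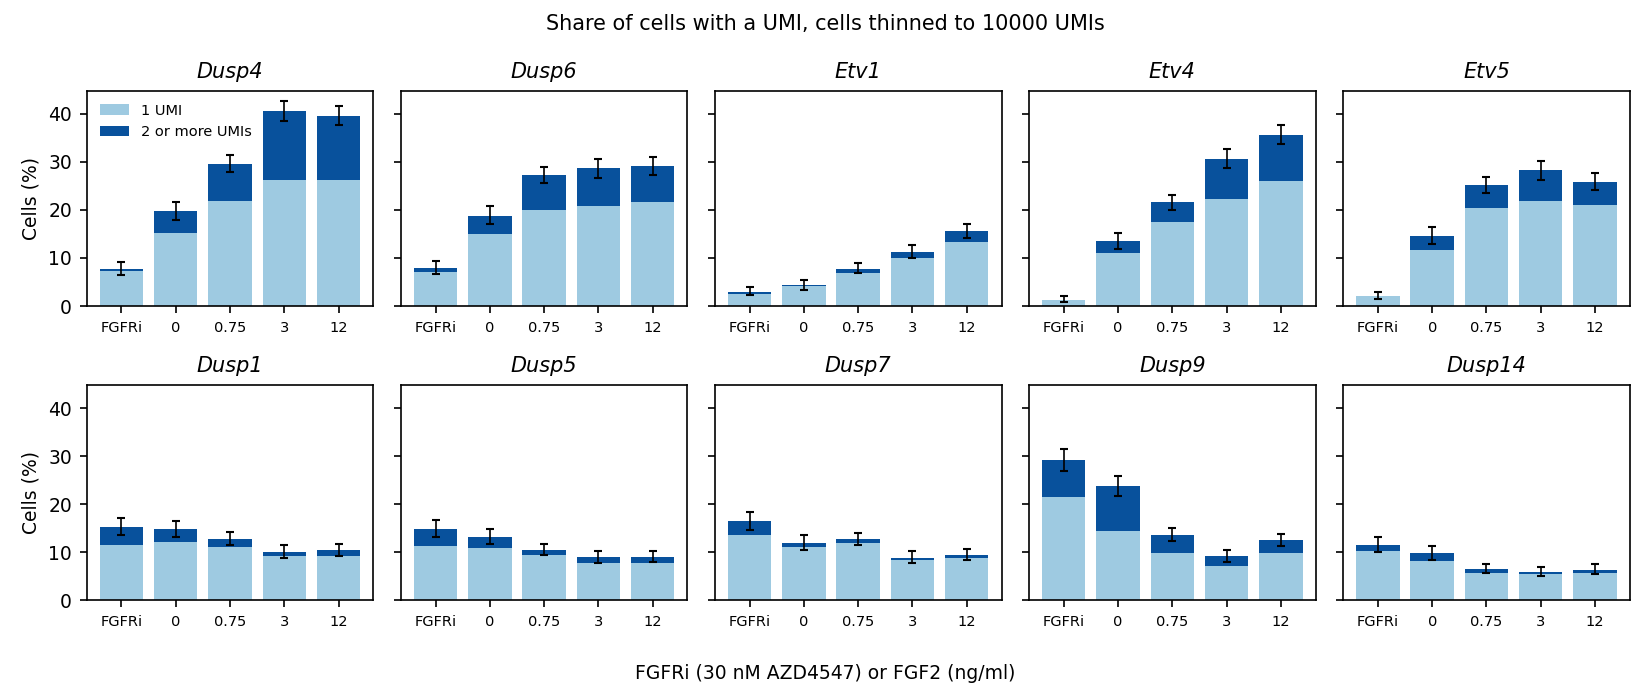
Share of cells with 1 (light) and with 2 or more (dark) UMIs of each member, in cells thinned to 10000 UMIs, with exact binomial 95% intervals on the total; bars start at 0. Etv4 goes from 1.32% with the FGFRi to 35.7% at 12 ng/ml FGF2, and the dark part of Dusp9 is largest at 0 ng/ml, at 9.35%.

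Within a library, the members differed between cells beyond what sampling of UMIs gives. The spread is given as the excess squared coefficient of variation (the variance less the mean, over the squared mean), which is near 0 where only counting varies. The median over all genes of at least 10 CPM was 0.21 with the FGFRi and 0.126 at 12 ng/ml. With the FGFRi, 4 of the 5 members at 10 CPM or more had an excess of at least 1, beside 11.5% of all such genes. Without FGF2 the count was 8 of 9, beside 9.94% of genes. With 0.75 ng/ml it was 3 of 8 (7.62% of genes), with 3 ng/ml 2 of 8 (6.83%) and with 12 ng/ml 3 of 9 (6.58%). These counts depend on depth, so their order between libraries is uncertain. With cells thinned to 5000 UMIs, Dusp7 (0.670) and Dusp9 (0.730) were below 1 with the FGFRi. At 0 ng/ml Dusp4 (0.479) was then below 1 and Dusp7 (1.34) above it. At 3 ng/ml Dusp1 (1.61) and Etv1 (2.10) were then above 1.

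Dusp9 had an excess of 1.36 with the FGFRi, and of 4.55, 4.57, 6.95 and 4.74 along the FGF2 doses. At 0 ng/ml, 71.1% of its UMIs lay in the 10% of cells with the most. This cell-to-cell difference of Dusp9 was larger in every FGF2 library than with the FGFRi. The excess of Etv4 along the doses was 2.34, 0.881, 0.511 and 0.296, and that of Etv5 was 1.47, 0.417, 0.610 and 0.168. Both were thus nearest to the median of all genes at 12 ng/ml. Dusp6 stayed between 0.803 and 1.03 from 0 to 12 ng/ml. Dusp7 had an excess of 0.559 without FGF2 and of -0.176 with 0.75 ng/ml, where no spread beyond counting was detectable. With cells thinned to 5000 UMIs, the excess was 0.891 for Etv4 at 3 ng/ml, 0.395 for Etv5 at 12 ng/ml, and 1.67 for Dusp6 and 1.34 for Dusp7 at 0 ng/ml, so that small values of these genes are uncertain, while Dusp9 was between 3.04 and 6.63 from 0 to 12 ng/ml and was at 0.730 with the FGFRi.

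**Figure D4:**
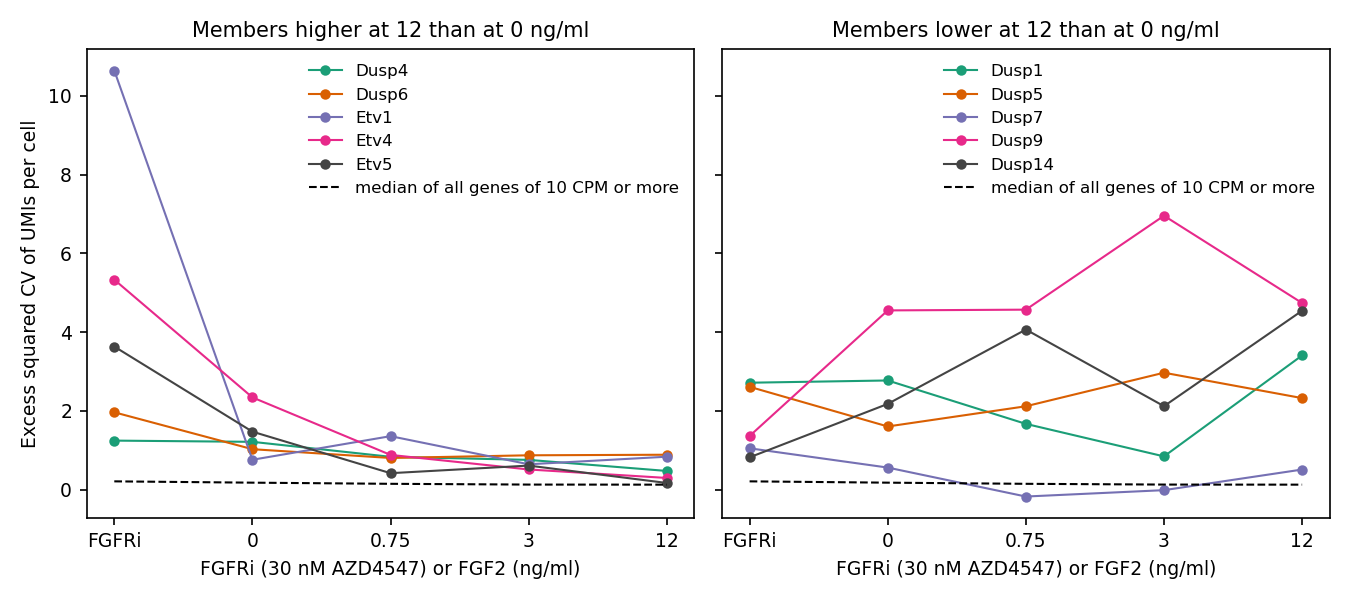
Excess squared coefficient of variation of UMIs per cell for each member in the 5 libraries, in cells thinned to 10000 UMIs; the dashed line is the median of all genes of at least 10 CPM. The excess of Etv4 goes from 2.34 at 0 ng/ml FGF2 to 0.296 at 12 ng/ml, while Dusp9 is at 4.55 and 4.74; values of genes below 10 CPM in a library, such as Etv1 with the FGFRi (10.6), rest on few UMIs.

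Cells were then split by a T UMI, after thinning; a cell without one may still express the gene. Cells with T made up 14.8%, 33.6%, 60.3% and 65.0% of cells along the doses from 0 to 12 ng/ml, and with the FGFRi only 9 of 1662 cells had one, too few to describe. At 0 ng/ml, Etv4 was at 39.5 CPM in cells with T and 12.9 in cells without, a ratio of 3.07 (2.38 to 3.95). The ratio was 3.37 for Etv1 (2.03 to 5.47), 2.57 for Etv5 (1.99 to 3.29), 2.34 for Dusp4 (1.88 to 2.89) and 1.80 for Dusp6 (1.41 to 2.28). The genes higher with FGF2 were thus higher in cells with T even without added FGF2. At 12 ng/ml, the same ratios were 1.21 for Etv4 (1.06 to 1.37), 1.39 for Etv1 (1.12 to 1.73) and 1.12 for Etv5 (0.962 to 1.32). They were 1.40 for Dusp4 (1.25 to 1.58) and 1.00 for Dusp6 (0.877 to 1.15). Split by a Tbx6 UMI instead, Dusp4 was lower in cells with Tbx6 at 3 ng/ml (0.758; 0.654 to 0.876) and 12 ng/ml (0.677; 0.597 to 0.767). Etv1 was higher in cells with Tbx6 in all 4 FGF2 libraries, with ratios of between 1.25 and 4.89. At 0 ng/ml the ratio by Tbx6 was 3.03 for Etv4 and 2.61 for Etv5. At 12 ng/ml it was 0.908 (0.797 to 1.03) and 0.995 (0.848 to 1.16). For Dusp6 all intervals by Tbx6 included 1.

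Dusp9 went the other way. It was at 11.3 CPM in cells with T and 53.9 in cells without at 0 ng/ml, a ratio of 0.209 (0.138 to 0.305), and was lower in cells with T in each of the 4 FGF2 libraries, with ratios of between 0.209 and 0.649. Dusp1 and Dusp14 were also lower in cells with T in all 4, with ratios of between 0.496 and 0.830 and between 0.439 and 0.882, and an interval below 1 in 3 libraries each. Dusp5 and Dusp7 differed little by T, and all their intervals included 1. In cells with a Hand1 UMI, Dusp9 was 2.76-fold higher than in cells without at 0 ng/ml (2.39 to 3.18) and 2.90-fold at 0.75 ng/ml (2.43 to 3.45), but 1.10-fold with the FGFRi (0.935 to 1.29). Dusp5 was higher in cells with Hand1 in all 5 libraries, with ratios of between 1.12 and 1.79 and an interval above 1 in 4. For Etv4 the ratio by Hand1 was 0.569 at 0 ng/ml (0.423 to 0.756).

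The dose response was read within each class, between 0 and 12 ng/ml. In cells without T, Etv4 was 3.26-fold higher at 12 ng/ml (2.72 to 3.92), Dusp4 2.15-fold (1.84 to 2.50), Etv5 1.96-fold (1.62 to 2.37) and Dusp6 1.86-fold (1.59 to 2.18). In cells with T, the ratios were 1.28 for Etv4 (1.04 to 1.60), 1.29 for Dusp4 (1.07 to 1.57), 0.859 for Etv5 (0.687 to 1.08) and 1.04 for Dusp6 (0.834 to 1.30). Etv1 was higher at 12 ng/ml in both, 4.30-fold in cells without T (3.06 to 6.15) and 1.78-fold in cells with T (1.21 to 2.72). Dusp9 was lower at 12 ng/ml in cells without T (0.478; 0.409 to 0.556), and in cells with T the ratio was 1.11 (0.743 to 1.71). The intervals of both classes did not overlap for 6 of the 10 members, which are those named here, beside 17.5% of the 8237 genes at 10 CPM. The difference between classes was not tested, because each dose was a single library. T was at 26.7 CPM at 0 ng/ml and at 208 CPM at 12 ng/ml. The share of T-expressing cells among those without a T UMI may thus differ between the doses, and it was not measured.

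**Figure D5:**
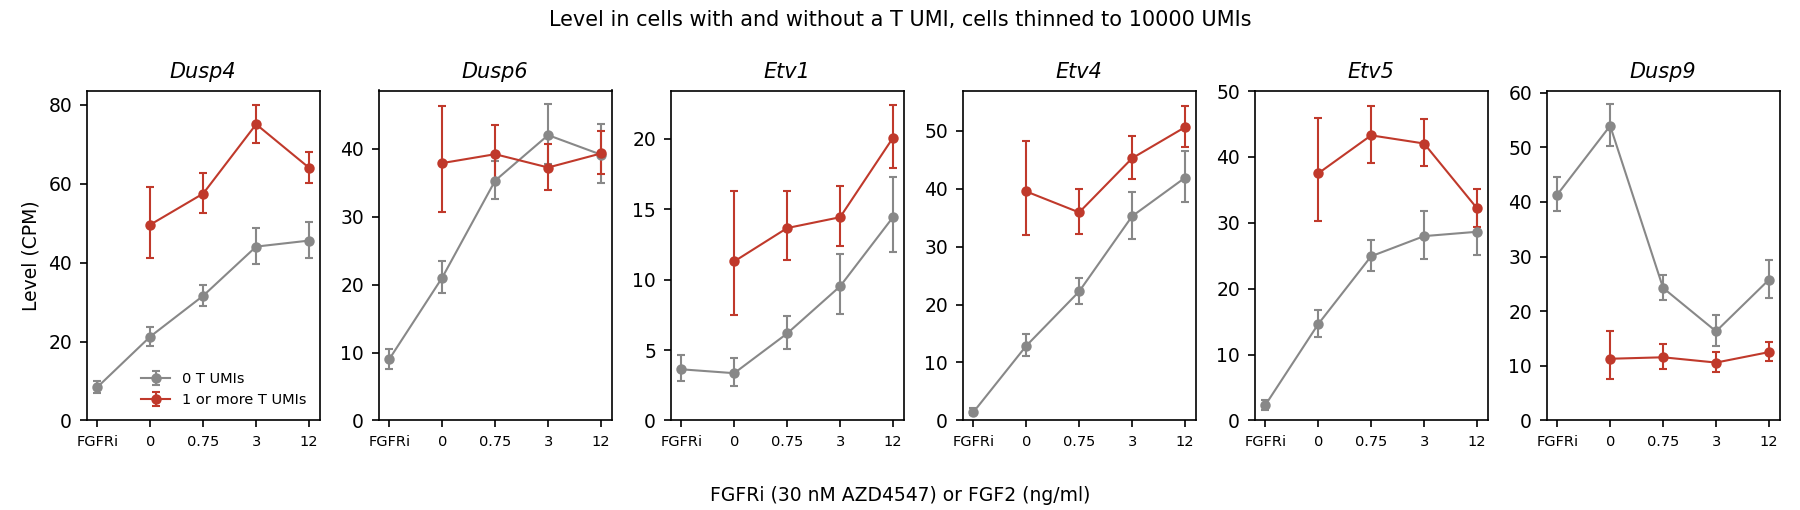
Level (CPM) of 6 members in cells with (red) and without (grey) a T UMI, in cells thinned to 10000 UMIs, with exact Poisson 95% intervals; cells with T are not shown for the FGFRi, where there were 9. At 0 ng/ml FGF2 Etv4 is at 39.5 CPM in cells with T and 12.9 in cells without, and at 12 ng/ml at 50.6 and 41.9.

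Cdh1 (E-cadherin) and Cdh2 (N-cadherin), which are exchanged as epiblast cells turn into mesoderm, gave a similar split. In cells with Cdh1 but no Cdh2 UMI, Etv4 was at 6.92 CPM at 0 ng/ml and 36.7 at 12 ng/ml, a ratio of 5.30 (3.75 to 7.60). Dusp4 was 4.38-fold higher (3.45 to 5.59), Etv5 4.04-fold (2.78 to 5.96) and Dusp6 2.56-fold (2.04 to 3.22). In cells with Cdh2 but no Cdh1, the ratios were 1.56 for Etv4 (1.29 to 1.89), 1.30 for Dusp4 (1.09 to 1.55), 1.19 for Dusp6 (0.976 to 1.46) and 0.914 for Etv5 (0.758 to 1.11). Etv1 was 6.73-fold higher in the former class (3.397 to 14.5) and 2.39-fold in the latter (1.69 to 3.46), with overlapping intervals. The intervals of 5 of the 10 members (Etv4, Dusp4, Etv5, Dusp6 and Dusp14) did not overlap, beside 12.3% of the same 8237 genes. Cells with Cdh1 only made up 38.7% and 15.0% of cells at 0 and 12 ng/ml, and those with Cdh2 only 24.9% and 54.1%, so that the classes also changed in size.

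Members were also compared by a UMI of Fgfr1, a receptor for FGF ligands. Between cells with and without an Fgfr1 UMI, Etv4 differed with ratios of between 0.852 and 1.16 and Dusp6 with ratios of between 0.823 and 1.17 over the 5 libraries. For Etv4 all intervals included 1, and for Dusp6 all but that at 12 ng/ml. Dusp9 was higher in cells with Fgfr1 in the 4 FGF2 libraries, with ratios of up to 2.05, and Etv1 in all 5, with ratios of between 1.25 and 1.82 and an interval above 1 in 4.

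Across cells of a library, members of either group correlated weakly with each other. Over the 45 pairs of members, the median Pearson correlation of log2(UMI + 1) in thinned cells was between 0.00139 and 0.0169 in the 5 libraries, and the highest value was 0.227, between Dusp1 and Dusp9 at 0 ng/ml. At such sparse counts these values are no finding. Among 7415 genes of at least 10 CPM in each FGF2 library, those most alike to Dusp4 by the mean correlation over these 4 libraries were T (0.192), Rspo3 (0.149) and Psme2 (0.145). For Etv4 they were Greb1 (0.191), Hoxb9 (0.185) and Epha5 (0.177), and for Etv5 Rspo3 (0.162), Ccnd2 (0.148) and Gm45889 (0.139). For Dusp6 the highest was Car2 (0.0904), which went from -0.0325 to 0.181 over the 4 libraries. These weak values are no finding either, and the genes compared share cells, library and depth.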

How the data were processed

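Single-cell transcriptomes of 5 libraries (10x Genomics 3′ kit v3.1) were re-analyzed, 1 per condition. The authors aligned reads to mm10 with Cell Ranger (5.0.1 in the matrix headers) and deposited raw UMI counts per gene and barcode, neither normalized nor filtered by their limits on cells. These limits (at least 2500 genes, at most 10% mitochondrial UMIs) were applied. No doublet filter is described, and none was applied. CPM were computed from UMIs summed per library, with exact Poisson, conditional or binomial 95% intervals. Thinning to 10000 UMIs per cell used random seed 1. Classes under 50 cells were left out. Correlations used a pseudocount of 1. Members and lists were chosen with earlier results of these data known. All members and the marker genes were named, and from each list the genes with the 2 largest ratios up and down from 0 to 12 ng/ml at 10 CPM or more, beside the 3 genes most alike to Dusp4, Dusp6, Etv4 and Etv5. The rule of size and the intervals were tested on simulated Poisson counts, which hold no spread between cells. Python 3.11.15, NumPy 2.4.6, SciPy 1.17.1, pandas 2.3.3, Matplotlib 3.10.9, R 4.3.3 and edgeR 4.0.16 (TMM factors only) were used. Alternatives were a limit of 5% mitochondrial UMIs, all barcodes, equal weight per cell, TMM scaling, totals without mitochondrial and ribosomal genes, leaving out the top 5% of cells by UMIs, other limits of the rule, thinning to 5000 UMIs, no thinning, markers called at 2 UMIs and Spearman correlation.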

Additional observations from a re-analysis of the deposited data

Results flagged for a closer look

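Some members had ratios on either side of 1 in different classes of cells when 12 was compared with 0 ng/ml FGF2, with intervals that did not overlap. In each pair, one of the intervals included 1, so that the values show a difference in size and not one in direction. Each dose was a single library, and the difference between classes was not tested. Of all 8237 genes at 10 CPM, 17.5% had intervals that did not overlap between the classes by T. For Cdh1 only against Cdh2 only the share was 12.3%. It was not counted for the classes by Fgf8, nor for genes with ratios on either side of 1. Etv5 had a ratio of 1.96 in cells without a T UMI (1.62 to 2.37) and of 0.859 in cells with T (0.687 to 1.08). Its ratio was 4.04 in cells with Cdh1 only (2.78 to 5.96) and 0.914 in cells with Cdh2 only (0.758 to 1.11), and 2.10 in cells without (1.75 to 2.51) and 0.797 in cells with an Fgf8 UMI (0.638 to 1.00). Dusp9 had a ratio of 0.478 in cells without T (0.409 to 0.556) and 1.11 in cells with T (0.743 to 1.71), and of 0.535 without (0.466 to 0.614) and 1.01 with Fgf8 (0.636 to 1.70). Dusp14 had a ratio of 1.05 in cells with Cdh1 only (0.744 to 1.47) and 0.425 in cells with Cdh2 only (0.282 to 0.644).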

How the results depend on the processing

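Of 120 recomputed counts of members past the rule of size and medians of their log2 ratios, 112 kept their value within the limits set (counts within 1.5 times, medians within 0.1). With a fold of 1.5, 3 members were higher from 0 to 0.75 ng/ml FGF2, beside 1.25% of all genes at 10 CPM. Then 2 were higher and 1 lower from 0.75 to 3 ng/ml (1.08% and 2.18% of genes), and 5 higher and 2 lower over the whole dose range (4.10% and 8.85%). With a minimum of 50 CPM, 0 of 1 member at that level was higher from the FGFRi to 0 ng/ml (1.86% of genes), and 1 of 2 over the dose range (1.21%), because the other members lie below that level. With equal weight per cell, the median log2 ratio from the FGFRi to 0 ng/ml was 0.36 instead of 0.47, and the cause was not tested. No single ratio past the rule changed sign under the 6 alternatives to cells and scaling, and TMM moved log2 ratios by at most 0.015. Of 50 excess values, 21 moved by over 50% at 5000 UMIs per cell. Of 250 ratios between marker classes, 38 moved beyond their interval with markers called at 2 UMIs, as did 49 of 270 without thinning. Such ratios turned without thinning for Dusp1 (1.04) and Dusp4 (0.971) by Cdx2 with the FGFRi and for Dusp7 (0.997) by Cdx2 at 12 ng/ml, and with markers called at 2 UMIs for Dusp6 (0.903) by Fgf8 at 0 ng/ml and Dusp5 (0.941) by Fgfr1 at 3 ng/ml; none of these is given above. No paired analysis was possible because each condition was a single library, and for the same reason no library could be left out. Depth limits Etv4, Etv5 and Etv1 with the FGFRi, at 66, 117 and 136 UMIs.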
